A study of Homo sapiens with 6 samples.

Results

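The genes described here were 30 targets and regulators of the transcription factor p53, picked by symbol from a list, with CDKN1A (p21) and the BCL2 family left out. All 30 were found by Ensembl identifier among the 20308 genes in the tables of 6 RNA sequencing libraries. The libraries came from LNCaP-AI cells, a human prostate cancer line kept under androgen deprivation that serves as a model of castration-resistant prostate cancer. The 3 shMETTL1 libraries came from cells in which a lentiviral hairpin stably silenced METTL1, the methyltransferase that places N7-methylguanosine on RNA, and the 3 shscramble libraries from control cells. Both groups shared the cell line and the androgen deprivation, so the contrast says nothing about cells grown with androgen. The sources used here do not give whether the knockdown cells were a pool or a clone, or whether replicate libraries came from separate cultures, so p-values measure the spread between these libraries, which may be technical.

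p53 is kept low by the ubiquitin ligase MDM2 and is stabilised when DNA is damaged, when ribosome assembly fails or when nutrients run short. It then binds DNA as a tetramer at pairs of short half-sites and switches on genes that stop the cell cycle, help DNA repair, prepare cell death or adjust metabolism, together with MDM2 itself, which closes a feedback loop. The mRNA levels of its targets are commonly read as its output, although many of these genes also answer to other factors. The list held 5 regulators of p53, 6 genes of cell cycle arrest, 4 of DNA repair, 8 of death and survival, 6 of metabolism and redox, and TRIM22, an interferon-responsive ubiquitin ligase that fits none of these.

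For each gene and library the tables hold an FPKM value (the fragments of a gene divided by transcript length and by library depth, a level per length) and an estimated count. The estimated counts of a library summed to between 3389897 and 3604835 and appear to have been scaled to a common depth, so that the number of reads behind a gene is unknown. METTL1 had 8.35, 10.5 and 8.18 FPKM in shMETTL1 cells, against 13.9, 18.5 and 21 FPKM in shscramble cells, 50.7% of the control mean (exact two-sided permutation p = 0.1, the smallest that 3 libraries against 3 allow). In the fits described below, its log2 fold change was -0.93 by limma, which did not call it (adjusted p = 0.127), and -1.36 by edgeR (adjusted p = 0.0368). All 9 luminal prostate markers looked for were detected, with a summed FPKM of 1955 to 2218 in shMETTL1 cells and 2472 to 2532 in shscramble cells, and edgeR called 3 of them lower (KLK2, KLK3 and TMPRSS2). At least 1 marker was at 0 in all libraries for basal (KRT5), neuroendocrine (CHGA and INSM1), fibroblast (LUM and DCN), leukocyte (PTPRC and CD3E) and endothelial cells (CDH5). The summed FPKM was 0.431 to 1.6 in shMETTL1 cells and 1.29 to 6.5 in shscramble cells for the basal list, 17.1 to 23.3 and 21.3 to 26.9 in shMETTL1 and shscramble cells for the neuroendocrine list (nearly all ENO2), and 5.31 to 11.2 and 7.94 to 13.7 in shMETTL1 and shscramble cells for the fibroblast list (nearly all COL1A1). Of the leukocyte list only CD68 was above the trace level, and it carried the summed 6.0 to 8.11 FPKM in shMETTL1 cells and 11.8 to 16.8 FPKM in shscramble cells. The part of these marker differences in the results below was not tested. Among the controls, shscramble replicate 2 was the highest shscramble library for 15 of the 29 p53 targets tested, and at or above the lowest shMETTL1 library for 16 of them, against 12 for shscramble replicate 1 and 13 for shscramble replicate 3. The same order held over all genes tested, at 76.2% for shscramble replicate 2, 60.999% for shscramble replicate 1 and 67.0% for shscramble replicate 3.

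In shMETTL1 cells 10 of the 29 p53 targets tested on FPKM lay above every shscramble library, and no target lay below. Over all 12156 genes tested, 10.5% lay above and 9.33% below in the same way. Without shscramble replicate 2, in a comparison of 3 libraries with 2, the count above was 15, beside 22.9% of all genes. These 10 were TP53INP1, MDM2 and PPM1D among the regulators, PLK2, ZMAT3 and BTG2 among the arrest genes, and AEN, TRIAP1, RPS27L and TNFRSF10C among the death and survival genes. None of the repair genes and none of the metabolic genes separated the groups by FPKM. In RNA from whole cultures, fewer cells of one kind and less RNA per cell cannot be told apart.

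The tests on both scales gave different counts of calls. By limma, a linear model of log2(FPKM + 0.5) over the genes whose mean FPKM was 0.5 or more, none of the 29 targets passed an adjusted p of 0.05 (Benjamini-Hochberg), and 0.123% of all genes did. The smallest adjusted p was 0.0849, for PLK2. At an unadjusted threshold of 0.05 limma had 10 targets higher, beside 7.37% of all genes, and 0 lower, beside 6.8%. By the quasi-likelihood test of edgeR on the estimated counts, 7 of 28 targets rose past the adjusted threshold (AEN, PLK2, MDM2, TP53INP1, SPATA18, ZMAT3 and TRIAP1) and 0 fell, beside 2.68% of all genes higher and 3.65% lower. At the unadjusted threshold edgeR had 12 targets higher, beside 10.7% of all genes, and 0 lower, beside 12.1%. The median log2 fold change of the targets was 0.33 by limma, where that of all genes was 0.02, and 0.30 by edgeR, where that of all genes was -6.74e-05. Above 0 were 22 of 29 targets by limma, beside 6376 of 12156 genes, and 22 of 28 by edgeR, beside 5623 of 11248 genes.

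**Figure D1:**
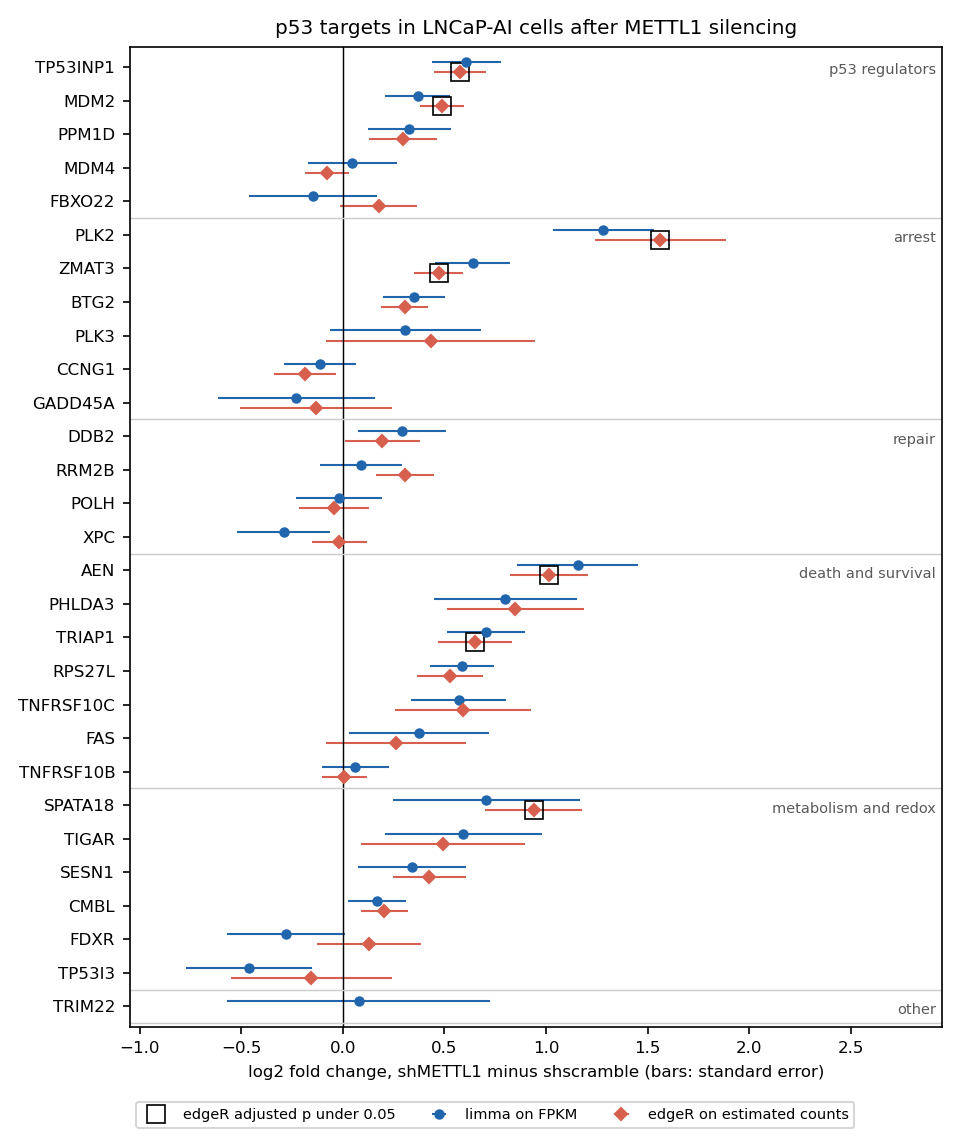
Log2 fold change (shMETTL1 minus shscramble, horizontal axis) of the 29 p53 targets tested, by role from top to bottom, with circles for limma on FPKM and diamonds for edgeR on estimated counts, with bars for the standard error and squares around the 7 values with an edgeR adjusted p under 0.05. The bars of edgeR were derived from its test statistic. All 7 death and survival genes tested lie to the right of 0, PLK2 is farthest to the right at 1.28 and 1.56, and the 4 repair genes lie on both sides of 0.

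The edgeR calls depended on single libraries. With each library left out in turn, between 1 and 8 targets were called higher. Over all genes, 712 of 11248 were called in either direction with all 6 libraries. That count ran from 270 of 11397 to 1989 of 11371 in the fits with 1 library left out. Only AEN was called in all 6 of these fits, PLK2 was called in 5, MDM2 and TP53INP1 in 3, SPATA18 in 2, and ZMAT3 and TRIAP1 in 1. Without shscramble replicate 2 the count rose to 8, PHLDA3 being the addition, beside 7.68% of all genes, and CCNG1 was then called lower, beside 9.81% of all genes. Without the same library limma called 1 target, AEN, beside 0.832% of all genes called higher. The median log2 fold change of the targets was then 0.35 by limma and 0.34 by edgeR.

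Short stretches around the annotated starts of 7 targets are shown for their matches to the p53 half-site, 10 bases made of a run of purines, a C, a pair of A or T bases, a G and a run of pyrimidines, which reads the same on both strands. RefSeq sequences (GRCh38.p14) from 250 bases before to 50 bases after each annotated start were at hand for 21 of the 30 genes. Each stretch is given 5′ to 3′ on the strand of its gene, with exact half-sites in capitals and, in a pair, imperfect ones as well. AEN, MDM2, PLK2 and RPS27L had groups that did not overlap by FPKM, and DDB2, FAS and FDXR, called in neither fit, are shown for comparison.
AEN: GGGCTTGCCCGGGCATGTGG
MDM2: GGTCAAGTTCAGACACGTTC
PLK2: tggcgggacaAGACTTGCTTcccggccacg
RPS27L: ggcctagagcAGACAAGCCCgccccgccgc
DDB2: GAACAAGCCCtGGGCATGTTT
FAS: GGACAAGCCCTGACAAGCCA
FDXR: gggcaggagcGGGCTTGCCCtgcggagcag

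The AEN stretch lies at chr15:88621306-88621325 on the plus strand, its exact half-site beginning at position -34 from the annotated start and an imperfect one following it. The MDM2 stretch, at chr12:68808923-68808942 on the plus strand, is a pair of imperfect half-sites that begins at position -94 from one annotated start and -101 from another. The PLK2 stretch (chr5:58460199-58460228, minus strand) and the RPS27L stretch (chr15:63157517-63157546, minus strand) hold a single half-site each, at positions -132 and -59. The DDB2 pair shown (chr11:47214979-47214999, plus strand) lies inside the transcript, from position 6, and other DDB2 pairs begin at positions -5 and 17. FAS (chr10:88991309-88991328, plus strand) has an exact half-site at position -122 followed by an imperfect one. FDXR (chr17:74872986-74873015, minus strand) has an exact half-site at position -11, which also ends an imperfect pair that begins at position -31. An exact half-site was found for 7 of the 21 genes (33.3%; PLK2, DDB2, FAS, AEN, RPS27L, SESN1 and FDXR), against 8.06% of 27305 gene symbols. A gene with several annotated starts had a window for each, and a match in any of them counted. Of the 21 genes 8 had several windows, and the 27305 symbols had 35116 windows in all. A pair with at most 2 differences in all and at most 13 bases between the half-sites was found in 7 of the 21 (MDM2, CCNG1, DDB2, FAS, AEN, SESN1 and FDXR), against 9.53% of all symbols, and every exact half-site in a pair counts in both searches. The letters CATG alone, which are common, were found for 9 of the 21 genes and for 60.6% of all symbols. A match is a description of the letters, and no binding was measured.

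Of the regulators of p53, MDM2 and TP53INP1 rose by edgeR. MDM2, the ligase that marks p53 for degradation and the best known read-out of p53 activity, had 160.0, 181 and 180 FPKM in shMETTL1 cells, against 147, 107 and 153 FPKM in shscramble cells. The lowest shMETTL1 library stood just above the highest shscramble library, and shscramble replicate 2 was the lowest of all. Its estimated counts were tighter, 1943, 1959 and 1859 in shMETTL1 cells and 1345, 1272 and 1337 in shscramble cells, with a wide gap between the groups. The log2 fold change was 0.49 ± 0.11 by edgeR (SE, n = 3 each; adjusted p = 0.0133) and 0.37 ± 0.16 by limma (adjusted p = 0.35), where it was 0.21 without shscramble replicate 2 (adjusted p = 0.345). The edgeR call was lost without shMETTL1 replicate 1 (adjusted p = 0.0618), shMETTL1 replicate 2 (0.0659) or shscramble replicate 3 (0.0717).

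TP53INP1, a stress protein that helps kinases phosphorylate p53 and takes part in autophagy, had 52.4, 45.5 and 36.7 FPKM in shMETTL1 cells, against 29.1, 28.4 and 29.3 FPKM in shscramble cells. The shscramble libraries lay within 1 FPKM of each other, while the shMETTL1 libraries were spread out above them without overlap. It rose by 0.58 ± 0.13 on the log2 scale by edgeR (SE, n = 3 each; adjusted p = 0.0138) while the limma value of 0.61 ± 0.17 did not pass (adjusted p = 0.177). The edgeR adjusted p was 0.0977 without shMETTL1 replicate 1, 0.0609 without shMETTL1 replicate 2 and 0.0711 without shscramble replicate 3. PPM1D, the phosphatase that turns off p53 and the damage kinases, had 12.5, 10.3 and 10.03 FPKM in shMETTL1 cells, against 7.65, 8.9 and 9.31 FPKM in shscramble cells. Its groups did not overlap, yet the difference missed the threshold in both tests (log2 fold changes of 0.33 by limma and 0.29 by edgeR, adjusted p = 0.493 and 0.318). MDM4, the partner of MDM2 that masks p53, had overlapping groups with means of 50.7 and 49.3 FPKM in shMETTL1 and shscramble cells. FBXO22, the substrate receptor of a ubiquitin ligase, also overlapped, and its level of 32.4 FPKM in shscramble replicate 2 stood above the 13.8 to 21.3 FPKM of the other libraries.

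Among the arrest genes PLK2 and ZMAT3 rose by edgeR. PLK2, a polo-like kinase of centriole duplication, had 10.01, 9.69 and 8.74 FPKM in shMETTL1 cells, against 4.64, 3.51 and 2.84 FPKM in shscramble cells. It had the largest fold change of the targets tested in both fits, 2.43-fold by limma and 2.96-fold by edgeR, with a clear gap between the groups, but it rested on low values, 39.1 to 55.0 estimated counts in shMETTL1 cells and 13.96 to 16.8 in shscramble cells. On the log2 scale it rose by 1.56 ± 0.32 by edgeR (SE, n = 3 each; adjusted p = 0.0087, and 0.0629 without shMETTL1 replicate 2), while the limma value of 1.28 ± 0.25 did not pass (adjusted p = 0.0849).

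ZMAT3, an RNA-binding zinc finger protein that acts on splicing and RNA decay, had 14.1, 14.7 and 14.1 FPKM in shMETTL1 cells, against 8.35, 8.94 and 9.74 FPKM in shscramble cells. The libraries of each group lay close together and far from those of the other group. On the log2 scale the difference was 0.64 ± 0.18 by limma (adjusted p = 0.179) and 0.47 ± 0.12 by edgeR (SE, n = 3 each; adjusted p = 0.0308), and the edgeR call was lost in every fit with 1 library left out (adjusted p between 0.0508 and 0.146) but the one without shscramble replicate 2 (0.019). BTG2, an antiproliferative protein that recruits the mRNA deadenylase, had 53.8, 59.7 and 51.4 FPKM in shMETTL1 cells, against 46.5, 45.5 and 37.2 FPKM in shscramble cells. Its groups did not overlap, and it passed neither adjusted threshold (log2 fold changes of 0.35 by limma and 0.30 by edgeR, adjusted p = 0.349 and 0.125).

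The other arrest genes overlapped between the groups. GADD45A, which inhibits the mitotic kinase and binds PCNA, averaged 7.8 ± 3.9 FPKM in shMETTL1 cells and 8.47 ± 1.73 FPKM in shscramble cells (SD, n = 3 each), with shMETTL1 replicate 1 low at 3.47 FPKM. CCNG1, a cyclin that brings a phosphatase to MDM2, averaged 81.4 ± 10.9 and 88.5 ± 15.6 FPKM in shMETTL1 and shscramble cells, and its edgeR log2 fold change of -0.19 (adjusted p = 0.498) became -0.36 (adjusted p = 0.0339) without shscramble replicate 2. PLK3, a stress kinase, averaged 2.23 ± 0.258 and 1.8 ± 0.798 FPKM in shMETTL1 and shscramble cells.

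**Figure D2:**
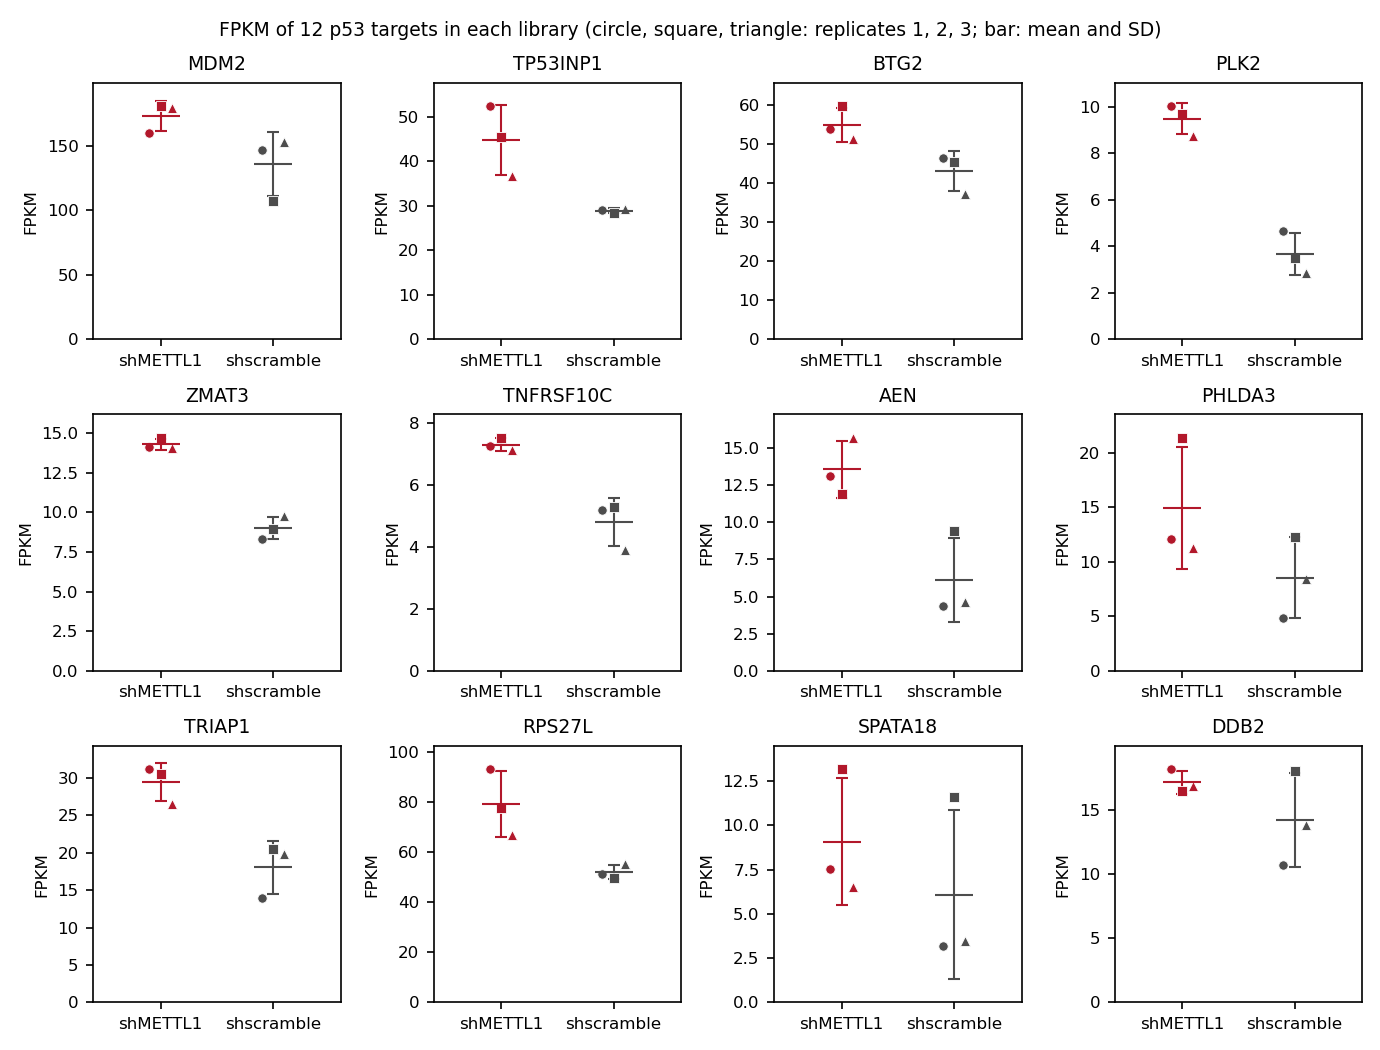
FPKM (vertical axes, each from 0) of 12 p53 targets in the 3 shMETTL1 and 3 shscramble libraries, with circles, squares and triangles for replicates 1, 2 and 3 and bars for the mean and SD. TP53INP1, PLK2 and ZMAT3 have a wide gap between the groups, AEN has shscramble replicate 2 at 9.39 FPKM well above the other controls, and SPATA18 and DDB2 overlap because of the same library.

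The repair genes showed no difference that passed an adjusted threshold. DDB2, which recognises ultraviolet damage for nucleotide excision repair, had 18.2, 16.5 and 16.8 FPKM in shMETTL1 cells, against 10.7, 18.1 and 13.8 FPKM in shscramble cells. Replicates 1 and 3 of shscramble lay below every shMETTL1 library and replicate 2 lay within them. Its log2 fold change was 0.29 ± 0.22 by limma and 0.19 ± 0.18 by edgeR (SE, n = 3 each; adjusted p = 0.565 and 0.580). RRM2B, the p53-inducible subunit of ribonucleotide reductase, averaged 19.9 ± 4.29 FPKM in shMETTL1 cells and 18.4 ± 1.56 FPKM in shscramble cells, and its estimated counts differed by 0.31 on the log2 scale (edgeR adjusted p = 0.216). POLH, the polymerase that copies past ultraviolet lesions, averaged 7.53 ± 0.936 and 7.61 ± 0.444 FPKM in shMETTL1 and shscramble cells. XPC, the other damage sensor of nucleotide excision repair, averaged 37.9 ± 2.49 and 48.0 ± 14.3 FPKM in shMETTL1 and shscramble cells, where shscramble replicate 2 was the lowest library at 31.7 FPKM, and its log2 fold change was -0.29 by limma but -0.02 by edgeR. Genes on the opposite strand overlap 30.4% of the exonic bases of XPC, and whether the libraries kept strand is not given in the sources used here.

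The death and survival genes had the highest medians of any role, 0.59 on the log2 scale by limma and 0.59 by edgeR, and all 7 tested were above 0. Differences between the roles were not tested. AEN, a nuclease that enhances apoptosis, had 13.1, 11.9 and 15.7 FPKM in shMETTL1 cells, against 4.39, 9.39 and 4.62 FPKM in shscramble cells. Every shMETTL1 library was higher than every shscramble library, and shscramble replicate 2 was about midway between the other controls and the knockdown. AEN rose by 1.01 ± 0.19 on the log2 scale by edgeR (SE, n = 3 each; adjusted p = 0.00505, and at most 0.0418 with any library left out), while the limma value of 1.16 ± 0.30 did not pass (adjusted p = 0.157).

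TRIAP1, a mitochondrial lipid transfer protein that holds back apoptosis, had 31.2, 30.6 and 26.5 FPKM in shMETTL1 cells, against 13.99, 20.5 and 19.8 FPKM in shscramble cells. Its groups stood well apart, with shscramble replicate 1 lowest. TRIAP1 rose by 0.65 ± 0.18 on the log2 scale by edgeR (SE, n = 3 each; adjusted p = 0.0452), while the limma value of 0.70 ± 0.19 did not pass (adjusted p = 0.177). The edgeR call was lost in every fit with 1 library left out (adjusted p between 0.0889 and 0.153) but the one without shscramble replicate 2 (0.0209). RPS27L, a paralogue of a small-subunit ribosomal protein, had 93.1, 77.8 and 66.8 FPKM in shMETTL1 cells, against 51.3, 49.8 and 55.4 FPKM in shscramble cells. The groups did not overlap, and the shMETTL1 libraries were more spread than the controls. The log2 fold change of 0.53 ± 0.16 by edgeR (SE, n = 3 each; adjusted p = 0.0636) and 0.59 ± 0.16 by limma (adjusted p = 0.176) missed the threshold.

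PHLDA3, a repressor of the survival kinase AKT, had 12.1, 21.4 and 11.3 FPKM in shMETTL1 cells, against 4.9, 12.3 and 8.41 FPKM in shscramble cells. The highest library of each group was its replicate 2, and that of shscramble lay above both of the lower shMETTL1 libraries, so the groups overlapped. The log2 fold change of 0.85 ± 0.34 by edgeR (SE, n = 3 each) did not pass (adjusted p = 0.144) but did without shscramble replicate 2, where it was 1.33 (adjusted p = 0.0101). PHLDA3 shares 13.2% of its 100-base stretches with an overlapping unnamed gene, so reads could be split between them.

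The receptors of the death ligands among the targets described were read together, and none passed an adjusted threshold. TNFRSF10C, a decoy receptor that binds TRAIL but has no death domain, had 7.25, 7.53 and 7.12 FPKM in shMETTL1 cells, against 5.21, 5.28 and 3.9 FPKM in shscramble cells. The groups were apart, yet the difference of 0.57 ± 0.23 by limma and 0.59 ± 0.34 by edgeR (log2, SE, n = 3 each) missed both thresholds (adjusted p = 0.326 and 0.315), and 28.9% of its 100-base stretches are shared with overlapping unnamed genes. TNFRSF10B, which carries the death signal of TRAIL, averaged 39.1 ± 5.81 FPKM in shMETTL1 cells and 37.2 ± 3.25 FPKM in shscramble cells, and its edgeR log2 fold change was 0.01 ± 0.11 (adjusted p = 0.974). FAS, the receptor of FAS ligand, averaged 4.86 ± 1.82 FPKM in shMETTL1 cells and 3.61 ± 1.17 FPKM in shscramble cells, with overlap. EDA2R, a receptor of ectodysplasin, was listed at 0 in 4 libraries and stood below 0.01 FPKM in the others, and could not be tested.

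Both remaining TRAIL receptors were read beside these from the wider list of p53 targets. TNFRSF10D, the other decoy, had 25.9, 27.5 and 24.8 FPKM in shMETTL1 cells, against 16.3, 15.9 and 19.0 FPKM in shscramble cells, without overlap, and rose by 0.56 ± 0.13 on the log2 scale (edgeR, SE, n = 3 each; adjusted p = 0.0159; by limma 0.60, adjusted p = 0.177). Without any 1 of the shMETTL1 libraries the edgeR adjusted p of TNFRSF10D was between 0.0501 and 0.0844. TNFRSF10A, the other receptor with a death domain, averaged 15.3 ± 1.47 FPKM in shMETTL1 cells and 13.8 ± 4.09 FPKM in shscramble cells, with overlap (edgeR adjusted p = 0.451). The decoys were apart between the groups and the signalling receptors were not, where 10.5% of all genes lay above every shscramble library. TNFRSF10D was added after its values were seen, and the difference between these pairs was not tested.

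**Figure D3:**
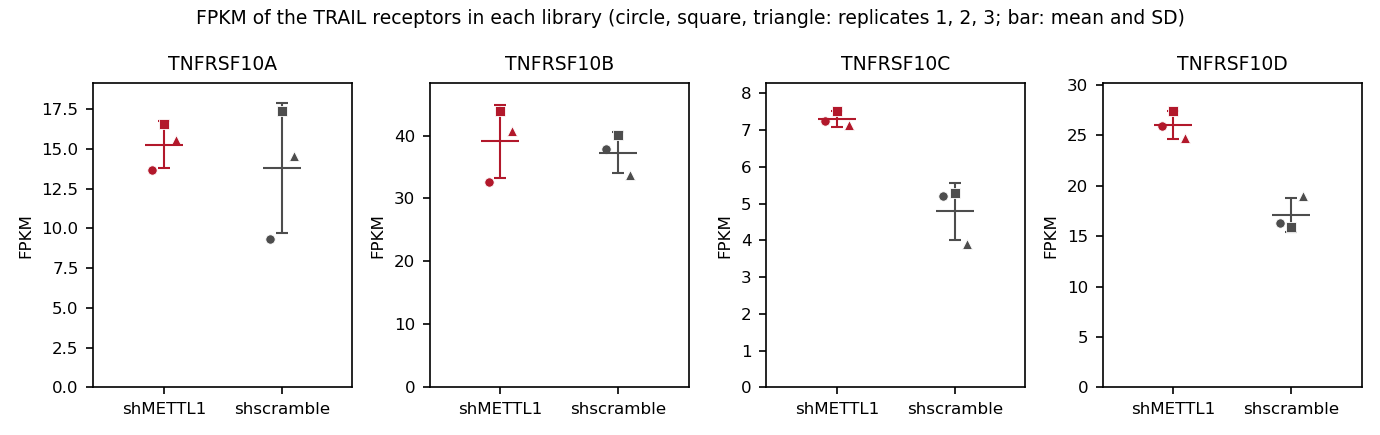
FPKM (vertical axes, each from 0) of the 4 TRAIL receptors in the 3 shMETTL1 and 3 shscramble libraries, with circles, squares and triangles for replicates 1, 2 and 3 and bars for the mean and SD. The decoys TNFRSF10C and TNFRSF10D separate the groups, at 7.12 FPKM or more in shMETTL1 cells against 5.28 FPKM or less in shscramble cells, and at 24.8 FPKM or more in shMETTL1 cells against 19.0 FPKM or less in shscramble cells, while TNFRSF10A and TNFRSF10B overlap.

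Of the metabolic and redox genes SPATA18 rose by edgeR, and its groups overlapped by FPKM but not by estimated count. SPATA18, which takes part in the clearing of damaged mitochondria, had 7.55, 13.2 and 6.51 FPKM in shMETTL1 cells, against 3.21, 11.6 and 3.46 FPKM in shscramble cells. Replicate 2 was the highest library of both groups, and that of shscramble lay above both of the lower shMETTL1 libraries. The estimated counts, 83.0, 113 and 68.4 in shMETTL1 cells and 34.5, 53.8 and 43.7 in shscramble cells, did not overlap. The count per FPKM was 4.65 in shscramble replicate 2 and between 8.6 and 12.6 in the other libraries, and the cause of this was not tested. SPATA18 rose by 0.94 ± 0.24 on the log2 scale by edgeR (SE, n = 3 each; adjusted p = 0.0288), while the limma value of 0.71 ± 0.46 did not pass (adjusted p = 0.511), nor did that of 1.26 without shscramble replicate 2 (adjusted p = 0.0926). The edgeR call held without shMETTL1 replicate 3 (adjusted p = 0.042) and without shscramble replicate 2 (0.0102), and was lost without any of the other libraries (0.082 to 0.183).

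The remaining metabolic genes passed no adjusted threshold. TIGAR, a phosphatase that slows glycolysis, averaged 6.09 ± 1.38 FPKM in shMETTL1 cells and 4.24 ± 2.67 FPKM in shscramble cells, where replicate 2 reached 7.31 FPKM and the others 2.43 and 2.99 FPKM, and 41.8% of its 100-base stretches are shared with an overlapping unnamed gene. SESN1, a sestrin that restrains growth signalling, overlapped by FPKM, with means of 17.2 ± 5.44 and 13.3 ± 3.08 in shMETTL1 and shscramble cells, but not by estimated count (log2 fold change of 0.42, edgeR adjusted p = 0.173). CMBL, a hydrolase, averaged 53.9 ± 5.01 and 47.8 ± 1.83 FPKM in shMETTL1 and shscramble cells, with overlap.

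FDXR, the reductase that feeds electrons to mitochondrial enzymes, and TP53I3, a quinone oxidoreductase linked to oxidative stress, had lower FPKM means in shMETTL1 cells, 9.99 ± 2.82 against 12.3 ± 4.25 in shscramble cells for FDXR and 3.58 ± 0.647 against 5.29 ± 1.89 in shscramble cells for TP53I3. Both overlapped between the groups, and neither difference passed a test. The log2 fold change of FDXR was -0.28 by limma and 0.13 by edgeR, a change of sign, and that of TP53I3 was -0.46 and -0.15. FDXR, TP53I3 and FBXO22 were the 3 of 28 targets whose fold changes differed by more than 0.3 between the scales, and 25 of the 28 had the same sign on both. TRIM22, near the limit of detection at 1.4, 0 and 0.563 FPKM in shMETTL1 cells and 0.764, 0.86 and 0 FPKM in shscramble cells, overlapped and was too low for edgeR.

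The roles were also set beside each other library by library. For each target the library's log2(FPKM + 0.5) was expressed as the distance from the mean over the 6 libraries and averaged within a role. The death and survival genes stood at 0.24, 0.47 and 0.20 in shMETTL1 cells, against -0.45, -0.15 and -0.31 in shscramble cells. The arrest genes stood at 0.06, 0.26 and 0.23 in shMETTL1 cells, against -0.06, -0.21 and -0.29 in shscramble cells, and the regulators at 0.18, 0.11 and 0.08 in shMETTL1 cells, against -0.16, -0.11 and -0.10 in shscramble cells. In these 3 roles every shMETTL1 library was above every shscramble library. The repair genes overlapped, at 0.04, 0.08 and -0.09 in shMETTL1 cells and -0.08, -0.03 and 0.09 in shscramble cells. The metabolic genes overlapped as well, at 0.01, 0.33 and -0.07 in shMETTL1 cells and -0.31, 0.29 and -0.25 in shscramble cells, with replicate 2 high in both groups by FPKM. By CPM of the estimated counts the metabolic genes stood at 0.24, 0.30 and -0.000369 in shMETTL1 cells, against -0.28, 0.02 and -0.27 in shscramble cells, where shscramble replicate 2 lay above shMETTL1 replicate 3 alone. Over all genes tested the mean ran from -0.08 to 0.07 by FPKM and from -0.05 to 0.07 by CPM, highest in shscramble replicate 2 on both scales. The genes were chosen with results of these data known, so these positions carry no test.

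**Figure D4:**
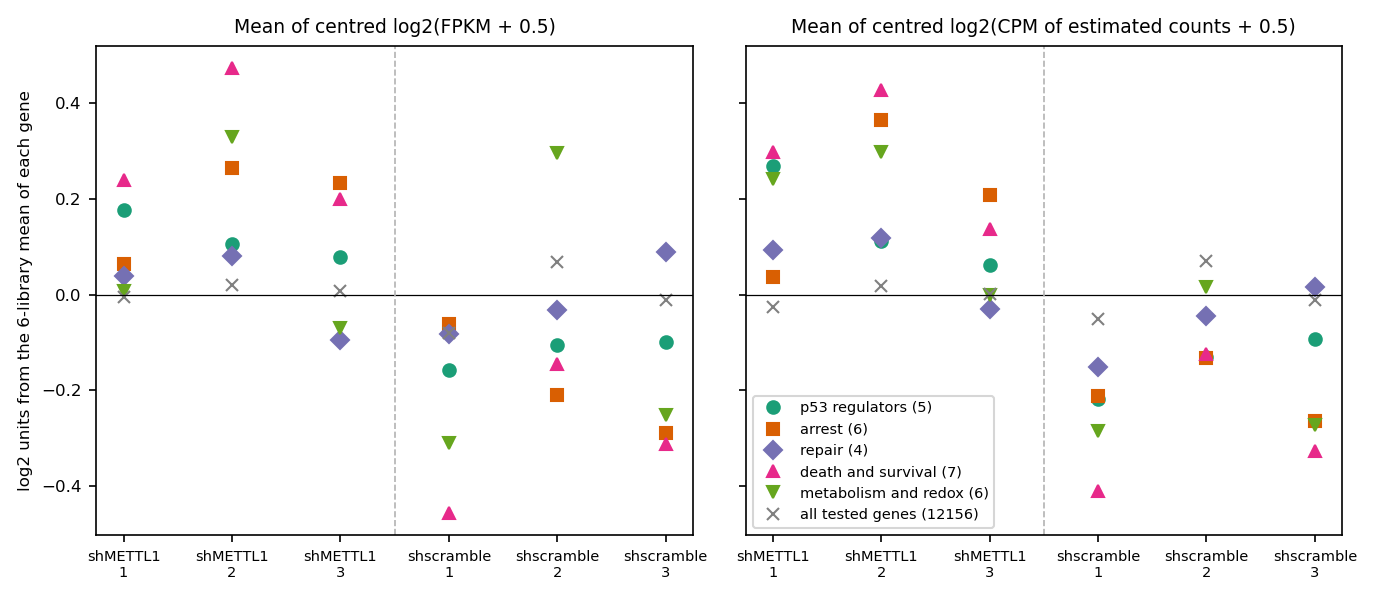
Mean over the genes of each role of the centred log2 level (vertical axis, log2 units from the 6-library mean of each gene) in each of the 3 shMETTL1 and 3 shscramble libraries, by FPKM on the left and by the share of the library's estimated counts (CPM) on the right, with crosses for all 12156 genes tested. The death and survival genes (upward triangles) span the widest range, from 0.47 to -0.45 by FPKM, while the metabolic genes (downward triangles) are high in both shMETTL1 replicate 2 (0.33) and shscramble replicate 2 (0.29) by FPKM, but at 0.30 in shMETTL1 replicate 2 and 0.02 in shscramble replicate 2 by CPM.

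The median log2 fold changes by role were 0.33 by limma and 0.29 by edgeR for the regulators, 0.33 and 0.37 for the arrest genes, 0.03 and 0.09 for the repair genes, 0.59 and 0.59 for death and survival, and 0.25 and 0.31 for metabolism and redox. The numbers called higher by edgeR were 2 of 5, 2 of 6, 0 of 4, 2 of 7 and 1 of 6 in that order, beside 2.68% of all genes. In no role was a gene called lower, beside 3.65% of all genes. With 4 to 7 genes a role, a median rests on few genes, and that of the arrest genes moved from 0.33 to 0.46 by limma without shscramble replicate 2 and to 0.12 without shscramble replicate 3. With 1 library left out in turn, that of the metabolic genes ran from 0.12 (without shMETTL1 replicate 2) to 0.39 (without shMETTL1 replicate 3) by limma, and that of the repair genes from 0.03 (without shscramble replicate 1) to 0.15 (without shscramble replicate 3) by edgeR. The genes that rose within a role do not act in 1 direction: AEN is known to promote cell death and TRIAP1 to oppose it, and MDM2 to restrain p53 and TP53INP1 to aid it.

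Of 19 genes listed as relatives or modifiers of p53, 18 were tested. Limma called none, beside 0.123% of all genes. At the unadjusted threshold limma had 1 higher, beside 7.37% of all genes, and 2 lower, beside 6.8%. At that threshold edgeR had 3 higher, beside 10.7% of all genes, and 3 lower, beside 12.1%. At the adjusted threshold edgeR called 0 higher, beside 2.68% of all genes, and 1 lower, beside 3.65%. The gene called was CHEK2, the checkpoint kinase that phosphorylates p53 after DNA breaks, which had 24.6, 18.7 and 22.7 FPKM in shMETTL1 cells, against 56.5, 41.0 and 48.5 FPKM in shscramble cells, without overlap. CHEK2 fell by 0.90 ± 0.18 on the log2 scale by edgeR (SE, n = 3 each; adjusted p = 0.0071, and at most 0.0487 with any library left out), while the limma value of -1.12 ± 0.18 did not pass (adjusted p = 0.0598). CDKN2A, whose alternative product blocks MDM2, averaged 16.5 ± 2.13 and 22.8 ± 2.45 FPKM in shMETTL1 and shscramble cells, but its estimated counts overlapped, with means of 51.6 and 53.9 in shMETTL1 and shscramble cells (log2 fold changes of -0.46 by limma and -0.12 by edgeR, adjusted p = 0.309 and 0.821). KDM4A, a histone demethylase, averaged 26.8 ± 0.804 FPKM in shMETTL1 cells and 19.8 ± 3.04 FPKM in shscramble cells, and did not pass the adjusted threshold. TP73, a relative of p53, averaged 2.37 ± 1.12 and 3.64 ± 0.637 FPKM in shMETTL1 and shscramble cells, with overlap.

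A wider list of 48 further p53 targets was read in the same way, of which 47 were found. By limma 46 were tested and 0 called, beside 0.123% of all genes. At the unadjusted threshold 9 were higher, beside 7.37% of all genes, and 1 lower, beside 6.8%. The median log2 fold change of the 46 was 0.17. By edgeR 42 were tested, 6 were called higher, beside 2.68% of all genes, and 1 lower, beside 3.65%, and the median was 0.15. The smallest limma p belonged to SESN2, the sestrin that senses leucine and restrains mTORC1, which had 14.2, 14.4 and 14.7 FPKM in shMETTL1 cells, against 2.94, 6.75 and 3.91 FPKM in shscramble cells. The SESN2 groups were far apart, and it rose by 1.63 ± 0.21 on the log2 scale (edgeR, SE, n = 3 each; adjusted p = 0.000325; by limma 1.64, adjusted p = 0.0643), while its relative SESN1 overlapped by FPKM. SESN2 is also a known target of the stress factor ATF4, so it does not report on p53 alone. PANK1, a kinase of coenzyme A synthesis, averaged 25.7 ± 1.84 FPKM in shMETTL1 cells and 11.5 ± 3.59 FPKM in shscramble cells, without overlap. Its log2 fold change was 1.17 by limma (adjusted p = 0.0885) and 0.62 by edgeR (adjusted p = 0.0431). The PANK1 count per FPKM ran from 4.6 in shMETTL1 replicate 3 to 9.9 in shscramble replicate 2, and the cause of this was not tested. ABHD4, a lipid hydrolase, averaged 35.2 ± 0.449 FPKM in shMETTL1 cells and 20.2 ± 5.81 FPKM in shscramble cells, also without overlap. Its log2 fold change was 0.82 by limma (adjusted p = 0.144) and 0.70 by edgeR (adjusted p = 0.0178). The PANK1 call was lost without any library but shscramble replicate 2 (edgeR adjusted p between 0.0506 and 0.151), and that of ABHD4 without any but shMETTL1 replicate 2 and shscramble replicate 2 (0.0555 to 0.110). PTP4A1, a phosphatase that favours growth, was the 1 gene called lower, at 17.98 ± 1.75 FPKM in shMETTL1 cells and 30.1 ± 1.85 FPKM in shscramble cells (edgeR log2 fold change of -0.75 ± 0.12, adjusted p = 0.00113).

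**Figure D5:**
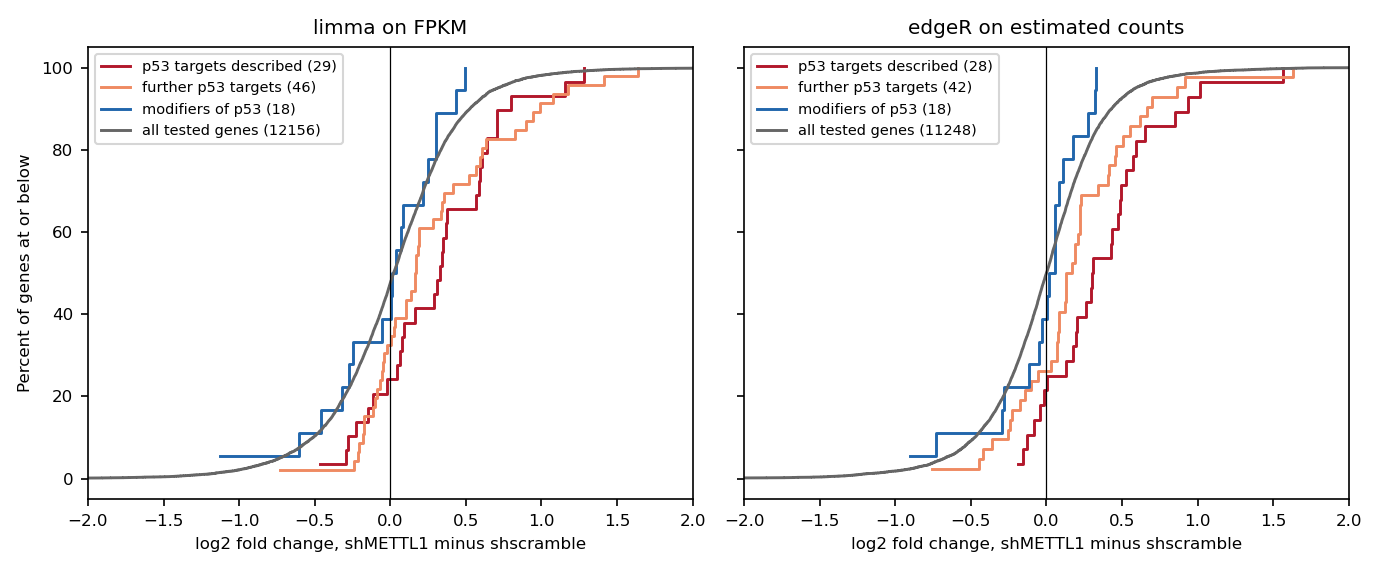
Percent of genes (vertical axis) at or below each log2 fold change (shMETTL1 minus shscramble, horizontal axis, drawn from -2 to 2) for the p53 targets described, the further p53 targets, the relatives and modifiers of p53, and all genes tested, by limma on FPKM on the left and by edgeR on estimated counts on the right. The line of the targets described lies to the right of that of all genes, with a median of 0.33 against 0.02 by limma, the further targets lie between them at 0.17, and the relatives and modifiers of p53 lie at 0.02.

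The targets were last read by their promoter letters. Among the 7 targets with an exact half-site, PLK2 and AEN were called by edgeR, and their groups were apart. RPS27L was not called but its groups were apart, and DDB2, FAS, SESN1 and FDXR were not called and overlapped by FPKM. Of all targets tested, 7 of 28 were called higher by edgeR and 10 of 29 lay above by FPKM, beside 2.68% and 10.5% of all genes. Targets with and without a half-site were not compared by a test. MDM2, with a pair of imperfect half-sites, was called, and CCNG1, with another, was not. Windows for ZMAT3, TRIAP1 and SPATA18, all called, held neither match in the letters searched. TP53INP1, also called, had no window to search. Sequence outside the windows was not searched for any gene.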

How the data were processed

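Total RNA of LNCaP-AI cells, 3 shMETTL1 and 3 shscramble libraries as the labels give them, was sequenced by the authors on an Illumina instrument in paired reads. Cufflinks, Cuffdiff, HISAT2 2.0.4, cutadapt 1.9.3 and the genome build hg19 are listed in the submitters' processing notes, which give them no role. FPKM, as deposited, divides each gene's fragments by the length of its transcripts and the depth of the library, a step the authors ran. The estimated count of each gene, also as deposited, is seldom a whole number (1.8% to 2.51% of the values above 0 were whole within 0.001), and the library totals are nearly equal, so no counting interval was computed.

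The 30 targets, their roles and the further lists were chosen with earlier results of these data known, so counts and medians over them are descriptions. Symbols were paired with 19434 of 20308 identifiers. The main test was limma 3.58.1 (trend, robust prior) in R 4.3.3 on log2(FPKM + 0.5), a scale that understates changes of low genes, over the 12156 genes whose mean FPKM reached 0.5. Beside it, the quasi-likelihood test of edgeR 4.0.16 (TMM, filterByExpr) was run on the estimated counts rounded to whole numbers, over 11248 genes. The SE given for edgeR is the size of the log2 fold change divided by the square root of the F statistic of that test. Tests were two-sided and unpaired, p-values were adjusted by the Benjamini-Hochberg method over all genes tested, and both scripts were tested on simulated data. Alternatives were other pseudocounts, filters and scalings, the replicate block, DESeq2 1.42.0, limma on log2 CPM (prior count 2) and each library left out.

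Values in each library are given for targets that either fit called or that had an unadjusted limma p under 0.05, for MDM2, and otherwise for the target of each role with the smallest limma p. Up to 4 genes with the smallest limma p were named from each further list, with METTL1. Some genes are not reported here. PPM1D, TRIM22 and TNFRSF10D, and single libraries of other targets, were added after their values were seen. Shared and overlapping sequence was counted in 100-base stretches on a GRCh38 annotation, and promoter sequences were taken from RefSeq.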

Additional observations from a re-analysis of the deposited data

How the results depend on the processing

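By limma the count of targets called stayed at 0 under both other pseudocounts, both other filters, median-ratio scaling and quantile normalization, and every target called by edgeR kept its sign in all alternatives of both fits. By edgeR 7 targets were called with DESeq2's size factors and by limma on log2 CPM, 6 by DESeq2 and with library totals only, where TRIAP1 was lost, and 9 without a filter, where PHLDA3 and RPS27L were gained. Genes called in all were 712 by edgeR, 1094 without a filter, and 270 to 1989 with 1 library left out. The median of the repair genes by limma turned to -0.00676 with quantile normalization. With 1 library left out in turn it ran from -0.0707 to 0.12, below 0 without shMETTL1 replicate 2 (-0.0707) and without shscramble replicate 1 (-0.00605).

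Over the same 6 fits, targets called higher ran from 1 to 8 by edgeR (4 without shscramble replicate 1) and from 0 to 1 by limma, and lower from 0 to 1 by edgeR. Beside them, genes called in either direction ran from 270 of 11397 to 1989 of 11371 by edgeR, and from 3 to 189 by limma. Targets with an unadjusted limma p under 0.05 ran from 6 to 12 higher and from 0 to 1 lower. With all 6 libraries 7.37% of all genes were higher and 6.8% lower at that threshold, and the shares in each of these fits are not given. The median of all targets ran from 0.28 to 0.35 by limma and from 0.29 to 0.41 by edgeR, and that of the arrest genes from 0.12 to 0.46 and from 0.17 to 0.40. The log2 fold change of METTL1 by edgeR ran from -1.72 to -1.045 and was no longer called without shMETTL1 replicate 1, shMETTL1 replicate 3 (-1.42) or shscramble replicate 3 (-1.13; adjusted p up to 0.187).

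The replicate numbers are shared between the groups, but the deviations of same-numbered libraries correlated at 0.00237, 0.0526 and -0.0238 over genes, so the numbers were not taken to pair them. With the replicate block, edgeR called 9 targets and 1015 genes, and limma 0 targets and 6 genes. The depth behind each value is unknown, so low genes such as PLK2, TNFRSF10C, TP53I3 and TRIM22 carry a counting error that was not measured. The cause of these differences between settings was not tested.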
